A study of Bos taurus with 15 samples.

Results

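The genes described here are 35 cytokines, chemokines, their receptors, adhesion molecules and nuclear factor kappa B (NF-kB) genes, measured in bovine testis with and without prednisolone. They were listed by name, with earlier results of these data known. They were found on the array through a probe's gene name, gene number, accession or description. All 35 had at least 1 probe, among 15073 named genes on the array, and 30 of the 35 had a probe bright enough to test.

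Cytokines and chemokines are secreted signals that call in and instruct immune cells. Many of their genes are switched on by NF-kB, a transcription factor held in the cytoplasm by inhibitor proteins until interleukin-1, tumour necrosis factor or bacterial products release it. In the testis, interstitial macrophages, Sertoli cells and germ cells also make several of these signals, among them interleukin-1, interleukin-6 and transforming growth factor beta, where they act on germ cell development and local immune tolerance. Glucocorticoids such as prednisolone act through the glucocorticoid receptor, which restrains NF-kB and lowers many inflammatory transcripts in immune cells.

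Total RNA was taken from testis tissue of 15 cattle (*Bos taurus*) collected at the slaughterhouse, 1 animal per single-colour Agilent array. The control group held 7 animals given no treatment, and the prednisolone group held 8 animals given 30 mg of prednisolone per head daily by mouth for 35 days. Neither age nor breed is given in the labels, and both groups are otherwise described alike. A level below is the log2 processed signal of a probe minus the 75th percentile of its array, so it can be compared between animals but not between genes, and a difference of 1 is a 2-fold difference.

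The 75th percentile of signal was 1220 to 2780 on 14 arrays, where 82.2% to 89.9% of probes were well above background, the scanner software's call that a spot exceeds its surroundings. The array of prednisolone 30 had a 75th percentile of 49.4 and 36.5% of probes well above background. It correlated with the other arrays at 0.705 to 0.736, against at least 0.962 among the other 14, and its scanner values correlated with its own column of the authors' deposited table at 0.0151 after centring each gene, against 0.887 to 0.972 on the others. Its weak probes sit near a floor that is far above their levels on the other arrays, so the results that rest on it are given with and without this animal. Germ cell markers marked the tissue as testis: all 5 with a probe were well above background on every array, and PRM1, a sperm protamine, lay at 7.78 ± 0.28 (SD, n = 7) in controls. The 0 of 6 epididymis markers with a matched probe left that tissue unchecked. The tissue is a mixture of cells, in which fewer cells of a type and less RNA per cell cannot be told apart.

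Most of the 35 genes were measurable in bovine testis. The 9 genes well above background on all 15 arrays were IL10, IL12A, LTA, TNFRSF1A, TGFB3, MIF, CCL5, CXCL12 and RELA. A further 16 were so on every array except that of prednisolone 30, among them TNF, TNFAIP3, CCL2, CXCL10, ICAM1, VCAM1 and NFKB1. IL1A, IL1B, IL1RN, IL6 and PTGS2 were near the background and were detected on some of the arrays. CXCL8, IL10RA, IL15, CSF2 and LIF did not reach the 7 detected arrays needed for a test. Between 25 and 32 of the 35 genes were well above background on each of the 14 arrays, and 9 on the array of prednisolone 30.

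**Figure D1:**
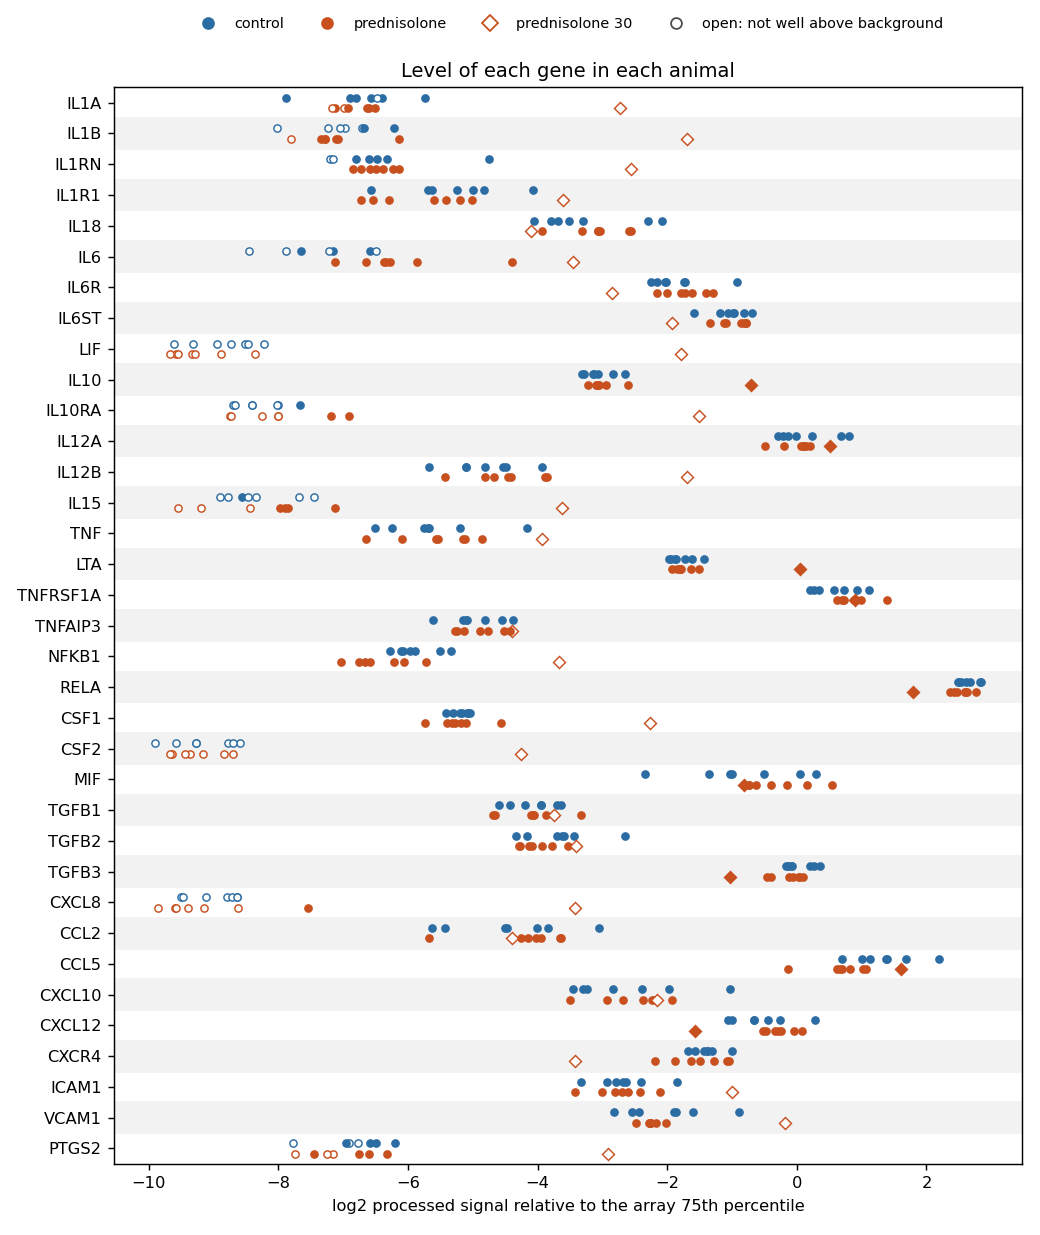
Level of each of the 35 genes in each animal, as log2 processed signal relative to the 75th percentile of the array (x axis). Blue points are the 7 controls, orange points the 8 prednisolone animals, diamonds prednisolone 30, and open symbols values not well above background. The blue and orange points overlap for every gene, and the diamonds of the dimmer genes lie far to the right of the other points.

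The testis of prednisolone animals and controls did not differ past the threshold in any cytokine, chemokine or NF-kB gene. Of the 30 tested, 0 had a limma adjusted p under 0.05, as did 0 of all 13296 genes tested (0%), with a smallest adjusted p of 0.883. The count stayed at 0 without prednisolone 30 (0%, smallest adjusted p 0.98) and in the authors' deposited values (0%, smallest adjusted p 0.515). At an unadjusted p under 0.05 in the same limma fits there were 2 of the 30, beside 2.45% of all genes: IL6, higher with prednisolone as were 1.49% of all genes, and CCL5, lower as were 0.963%. Without prednisolone 30 there were 3, beside 4.14%: IL6, higher as were 2.48%, and CCL5 and NFKB1, lower as were 1.66%. In the deposited values there were also 3, beside 5.39%: IL6, higher as were 2.95%, and CCL5 and TGFB2, lower as were 2.44%. These shares of the set are 2 or 3 genes each and are not read as more than the background.

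The direction of the set turned with the dim array. With all 15 arrays, 20 of the 30 genes were higher with prednisolone, beside 52.1% of all genes, and the median difference was 0.12 against 0.02 over all genes. Without prednisolone 30, 14 of 30 were higher, beside 52.6%, with a median of -0.03 against 0.01. In the deposited values 16 of 30 were higher, beside 48.8%, with a median of 0.01 against -0.01. No gene of the set had groups that did not overlap, beside 0.0226% of all genes in either direction with all arrays, and 0.0301% higher and 0.0376% lower without that animal.

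Without prednisolone 30, 23 of the 30 genes differed by less than 0.3 on the log2 scale in either direction, or 76.7% against 87.8% of all genes. For 25 of the 30, or 83.3%, the 95% interval of the difference lay within a 2-fold change up or down, against 94.4% of all genes. The 5 whose intervals reached past it were IL1R1, IL6, MIF, CCL2 and CCL5. With all 15 arrays the interval lay within that bound for 18 of the 30, or 60%, against 76.3% of all genes.

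**Figure D2:**
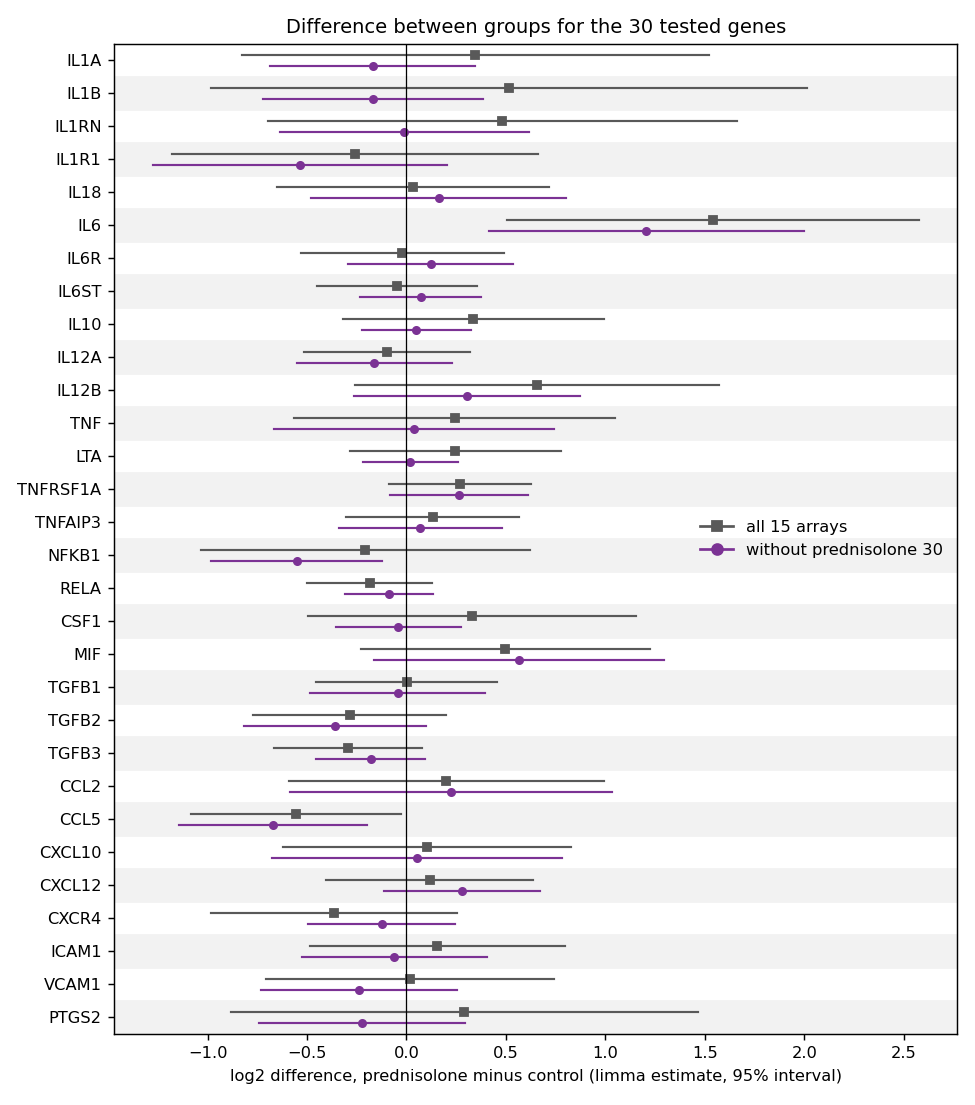
Difference between the prednisolone and control groups for the 30 tested genes, as the log2 difference estimated by limma (x axis) with its 95% interval. Grey squares use all 15 arrays and purple points leave out prednisolone 30. IL6 lies highest, at 1.54 and 1.21, and CCL5 lowest, at -0.56 and -0.67, while most other intervals cross 0.

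IL6 encodes interleukin-6, a cytokine of the acute phase response that NF-kB induces and that Sertoli and Leydig cells can also secrete. It had the largest difference of the set. In controls its level was -8.46 at the lowest, -7.22 at the median and -6.50 at the highest, and in the prednisolone animals other than 30 it was -7.13, -6.34 and -4.39. Control 22 was lowest and prednisolone 32 highest, the groups overlapped, and all 7 of these treated animals lay above the control mean. Prednisolone 30 read -3.46, which was not well above background.

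Controls averaged -7.35 ± 0.70 (SD, n = 7) for IL6 and prednisolone animals -5.81 ± 1.24 (SD, n = 8). The difference was 1.54 ± 0.49 (SE), with a 95% interval of 0.51 to 2.58 and a limma adjusted p of 0.883. A two-sided exact permutation test of this gene alone, over the 6435 splits of the animals, gave p = 0.00482. This p is not adjusted for the 30 genes tested, and it counts the reading of prednisolone 30 that was not well above background. Exact tests were chosen after seeing the data. They are quoted for IL6, CCL5 and NFKB1, which had the smallest exact permutation p without prednisolone 30, so they add no separate support. Without prednisolone 30 the difference was 1.21 ± 0.37 (SE), or 2.31-fold with an interval of 1.33 to 3.99, an adjusted p of 0.98 and an exact permutation p = 0.00699. In the deposited values, which were blank for prednisolone 25, 27, 29 and 30, it was 1.63 with an interval of 0.70 to 2.56 (adjusted p = 0.846). IL6 therefore lay higher with prednisolone in each set of values and did not pass the adjustment in any.

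The IL6 signal was weak. Its probe was well above background in 3 of 7 controls, namely 17, 18 and 23, and in 7 of 8 treated animals. The lowest level of any probe called well above background lay between -8.87 and -7.56 on the control arrays and between -8.90 and -7.71 on the treated arrays other than 30, so the control values of IL6 lie close to what the arrays could resolve. With normexp background correction (offset 50) and quantile normalization, the IL6 difference was 0.21, against 1.54 in the main fit of all arrays. In that setting IL6 did not pass the unadjusted threshold, which it passed in 32 of the 40 settings that gave it a value. A stricter filter on dim probes kept 25 genes of the set and left IL6 out. The size of the IL6 difference thus depended on the processing, and the part of the detection limit in it was not tested.

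Each probe is printed as 2 spots, and the highest IL6 value rests on 1 of them. In prednisolone 32 the first spot read -6.61 and the second -2.17, while the spots differed by a median of 0.32 over the 14 arrays. Without prednisolone 30, the first spots alone gave a difference of 0.94 (95% interval 0.21 to 1.67) and the second spots alone 1.47 (0.27 to 2.67). With both prednisolone 30 and 32 left out it was 0.91 (0.28 to 1.54). On the first spot no control was well above background, and of the treated animals only 26, 27, 31 and 32 were. The control detections of IL6 thus came from the second spot alone. IL6 read higher with prednisolone on either spot and without either of these 2 animals, 30 and 32. None of these fits brought a limma adjusted p under 0.05.

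The slides of the arrays limit what can be said of IL6. Slide 1 held controls 17 and 18 with prednisolone 25 and 26, slide 4 held control 23 with prednisolone 29 and 30, and every other slide held 1 group. A fit with slide as a block therefore compares the groups within slides 1 and 4 only. Within slide 1 the IL6 difference was 0.66 (95% interval -0.32 to 1.63) and within slide 4 it was 1.69 (-1.70 to 5.09). With slide as a block it was 1.07 (-0.54 to 2.68), and 0.52 (-0.61 to 1.65) when prednisolone 30 was also left out. With scan day as a block it was 1.54 (-0.05 to 3.13). IL6 was higher in each, every one of these intervals included 0, and the slides of the other arrays cannot be told apart from the treatment.

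The receptor chains of interleukin-6 did not differ past the threshold. IL6R, the ligand-binding chain, had levels of -2.26, -2.02 and -0.92 (lowest, median, highest) in controls and -2.16, -1.73 and -1.29 in treated animals other than 30, a difference of -0.02 with all arrays and 0.12 without prednisolone 30. IL6ST, the signal-transducing chain shared with LIF, differed by -0.05 and 0.07. For both genes the 95% interval stayed within -0.53 and 0.54 in both fits. Control 17 was the highest control for IL6R, and the difference was 0.27 (-0.05 to 0.60) without control 17 and prednisolone 30, and 0.32 (0.02 to 0.61) with arrays weighted by their quality. LIF itself, leukaemia inhibitory factor, was well above background on 0 of 15 arrays.

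In the interleukin-1 family, the ligands lay near background and the values did not separate the groups. IL1B, a main inflammatory cytokine of macrophages, was well above background in 2 controls and 6 treated animals. Its level was -8.02, -6.98 and -6.21 (lowest, median, highest) in controls and -7.81, -7.28 and -6.13 in treated animals other than 30. The difference was 0.51 with all arrays, where prednisolone 30 read -1.70 without being well above background, and -0.17 (95% interval -0.72 to 0.39) without it. Every treated detection of IL1B came from the first spot. Without prednisolone 30 the first spots differed by 0.34 (-0.59 to 1.27). The second spots differed by -0.67 (-1.27 to -0.08, limma adjusted p = 0.975). The spots of IL1B thus had opposite signs, and their average cannot be set against the detections. IL1A, the sister ligand of IL1B, differed by 0.35 with all arrays and -0.17 without prednisolone 30. IL1RN, the secreted antagonist of both ligands, differed by 0.48 and -0.01 in the same fits. The 95% interval of each of these differences included 0. IL1RN was highest in control 17, at -4.75, against -7.21 to -6.33 in the other controls.

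IL1R1, the signalling receptor of interleukin-1, had levels of -6.57, -5.24 and -4.07 in controls and -6.72, -5.60 and -5.02 in treated animals other than 30. The difference was -0.26 with all arrays and -0.54 (95% interval -1.28 to 0.21) without prednisolone 30. With slide as a block and without prednisolone 30 it was -1.05 (-1.80 to -0.30), and within scan day 1 without that animal it was -1.40 (-2.22 to -0.58), both with a limma adjusted p over 0.05. Its 2 spots disagreed, since without prednisolone 30 the first spots differed by -1.06 (-2.06 to -0.06) and the second by -0.01 (-0.75 to 0.73). Prednisolone 31 and 32, which share slide 7, read -7.86 and -7.81 on the first spot and -5.21 and -5.64 on the second. A second probe filed under IL1R1 carries a description of another gene, TAF6, and was not used for it. IL18, an interleukin-1 family cytokine that prompts interferon gamma release, differed by 0.03 and 0.16.

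Interleukin-10 and interleukin-12, which respectively dampen and promote cellular immunity, did not differ past the threshold. IL10 was well above background in every animal, at -3.31 to -2.66 in controls and -3.22 to -2.60 in treated animals other than 30. Its difference was 0.34 (95% interval -0.32 to 0.99) with all arrays and 0.05 (-0.22 to 0.32) without prednisolone 30. IL12B, the p40 chain of interleukin-12 and interleukin-23, had levels of -5.68, -4.81 and -3.94 in controls and -5.42, -4.46 and -3.86 in treated animals other than 30. It differed by 0.66 (95% interval -0.26 to 1.57) with all arrays and 0.30 (-0.26 to 0.87) without prednisolone 30, which read -1.70 without being well above background. Within slide 1 alone IL12B had an unadjusted limma p under 0.05, as had 3.49% of all genes, with an adjusted p over 0.05. IL12A, the other chain, differed by -0.10 and -0.16. IL10RA and IL15 were well above background in 1 control each and in 3 and 4 treated animals, too few for a test.

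Tumour necrosis factor and its near relatives did not differ beyond their spread. TNF, the cytokine that gave the family its name, had levels of -6.51, -5.70 and -4.17 in controls and -6.65, -5.54 and -4.85 in treated animals other than 30. It differed by 0.24 with all arrays and by 0.04 (95% interval -0.67 to 0.74) without prednisolone 30. A second TNF probe was well above background on 1 of 15 arrays. LTA, lymphotoxin alpha, whose gene lies next to TNF with 0 protein-coding genes between them, differed by 0.24 and 0.02, and its second probe by 0.48 and 0.12.

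TNFRSF1A, the main receptor of TNF, had a somewhat higher mean with prednisolone, within the spread. It lay at 0.20, 0.58 and 1.11 (lowest, median, highest) in controls and at 0.62, 0.72 and 1.39 in treated animals other than 30. Controls averaged 0.59 ± 0.35 (SD, n = 7) and prednisolone animals 0.86 ± 0.25 (SD, n = 8). All 8 treated animals lay above the control mean, yet the groups overlapped and the difference of 0.27 (95% interval -0.09 to 0.63, adjusted p = 0.883) did not pass. Without prednisolone 30 it was 0.27 (-0.08 to 0.61). Prednisolone 27 was the highest animal.

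TNFAIP3 encodes A20, an inhibitor that NF-kB induces and that switches NF-kB off again. Its level was -5.62, -5.10 and -4.38 in controls and -5.27, -4.89 and -4.43 in treated animals other than 30. The difference was 0.13 with all arrays and 0.07 (95% interval -0.34 to 0.48) without prednisolone 30.

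RELA, the activating p65 subunit of NF-kB, was the steadiest gene of the set. It lay at 2.48, 2.60 and 2.84 in controls and at 2.37, 2.59 and 2.77 in treated animals other than 30, with an SD of 0.15 over those 14 animals. Its difference was -0.18 with all arrays, where prednisolone 30 was lowest at 1.79, and -0.09 (95% interval -0.31 to 0.13) without it.

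NFKB1, the gene of the p105 precursor and p50 subunit, lay lower with prednisolone when prednisolone 30 was left out. Its level was -6.28, -5.97 and -5.33 in controls and -7.04, -6.58 and -5.73 in the 7 other treated animals, of which 6 lay below the control mean. The difference was -0.55 ± 0.20 (SE) with a 95% interval of -0.98 to -0.12, a limma adjusted p of 0.98 and an exact permutation p = 0.0256 for this gene alone. With all 15 arrays it was -0.21 (-1.03 to 0.62), where prednisolone 30 read -3.68 without being well above background. In the deposited values it was -0.20 (-0.60 to 0.21).

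The 2 spots of the NFKB1 probe gave opposite signs. Without prednisolone 30, the first spots lay at -6.15 ± 0.26 (SD, n = 7) in controls and -5.91 ± 0.25 (SD, n = 7) in treated animals, a difference of 0.24 (95% interval -0.08 to 0.55). The second spots lay at -5.62 ± 0.65 (SD, n = 7) and -6.96 ± 0.83 (SD, n = 7), a difference of -1.34 (-2.10 to -0.58). The first spot was the brighter one in 6 of 7 treated animals and in 1 of 7 controls. The second spots of prednisolone 31 and 32, both on slide 7, were the dimmest, at -8.29 and -7.56, and were not well above background. The lower value of NFKB1 was therefore carried by 1 of its spots and was not seen on the other.

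**Figure D3:**
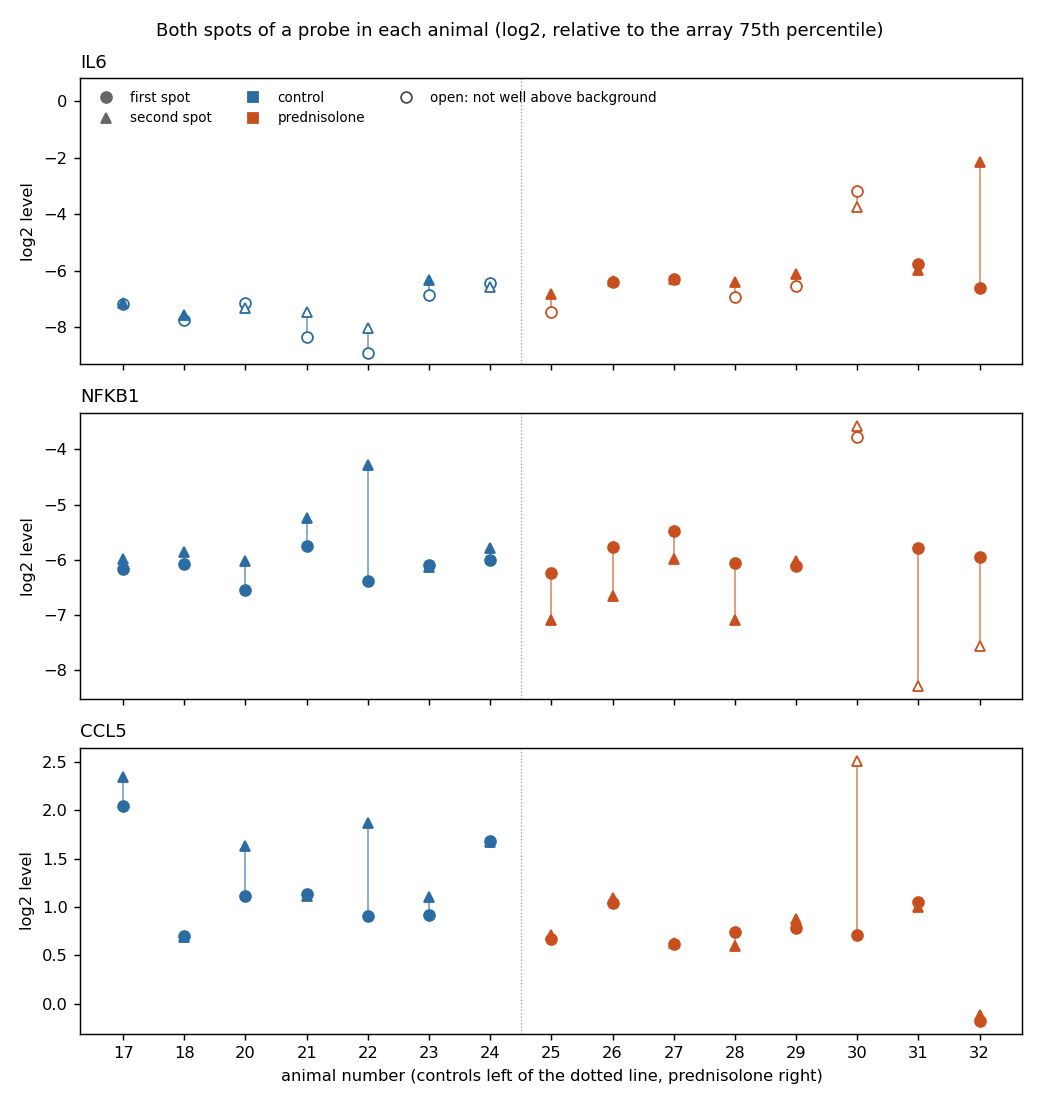
Level of the first spot (circles) and second spot (triangles) of the IL6, NFKB1 and CCL5 probes in each animal, as log2 signal relative to the array's 75th percentile (y axis), with animal numbers on the x axis and a line joining the spots of an animal. Open symbols were not well above background. The IL6 spots of prednisolone 32 lie at -6.61 and -2.17, the NFKB1 triangles lie below the circles in 6 of the 7 treated animals other than 30, and the CCL5 spots mostly lie close together.

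Spots of 1 probe also disagreed for other genes of the set. The differences from first and second spots, without prednisolone 30, were more than 1 apart for 3 of the 30 genes, IL1B, IL1R1 and NFKB1 (10%), against 0.226% of all tested genes. The median gap was 0.17 in the set and 0.10 over all genes. Many of these genes are dim, and the part of brightness in the gap was not tested. Among the genes well above background in every animal, MIF gave 0.53 and 0.59 and RELA -0.09 on each spot, while CCL5 gave -0.54 and -0.80, CXCL12 0.39 and 0.17 and IL12A -0.25 and -0.07.

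Colony-stimulating factors and MIF act on macrophages. CSF1, which keeps macrophages alive, was -5.41 to -5.05 in controls and -5.74 to -4.57 in treated animals other than 30, and differed by 0.33 (95% interval -0.50 to 1.15) with all arrays and -0.04 (-0.35 to 0.27) without prednisolone 30. CSF2, granulocyte-macrophage colony-stimulating factor, was well above background on 0 of 15 arrays.

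MIF, macrophage migration inhibitory factor, is a cytokine known for opposing the anti-inflammatory action of glucocorticoids and is made by Leydig cells. Its level was -2.35, -0.99 and 0.30 in controls and -0.74, -0.39 and 0.54 in treated animals other than 30, with prednisolone 30 at -0.81. All 8 treated animals lay above the control mean of -0.84 ± 0.89 (SD, n = 7). Controls 17 and 24 nevertheless lay among the highest animals, at 0.05 and 0.30, and the groups overlapped. The difference was 0.50 (95% interval -0.23 to 1.22) with all arrays and 0.56 (-0.16 to 1.29) without prednisolone 30. Without control 22, the lowest animal, it was 0.25 (-0.38 to 0.87).

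The 3 transforming growth factor beta genes, which encode cytokines that hold back lymphocytes and shape tubule development, gave no common direction. TGFB1 had levels of -4.60, -3.95 and -3.63 in controls and -4.69, -4.07 and -3.34 in treated animals other than 30, a difference of 0.00 with all arrays and -0.04 (95% interval -0.49 to 0.40) without prednisolone 30. With slide as a block TGFB1 differed by 0.46 (0.0021 to 0.91), and by 0.40 (0.05 to 0.75) when prednisolone 30 was also left out. Both values rest on slides 1 and 4, and the limma adjusted p was over 0.05 in both fits. Without prednisolone 30 the first spots of TGFB1 differed by 0.21 (-0.23 to 0.64) and the second by -0.30 (-0.85 to 0.26). The second spots of prednisolone 31 and 32, both on slide 7, were the dimmest, at -5.32 and -5.11. TGFB2 had -4.34, -3.63 and -2.65 against -4.30, -4.08 and -3.53, with control 17 the highest animal. Its difference was -0.28 (95% interval -0.77 to 0.20), and -0.36 (-0.82 to 0.10) without prednisolone 30. It was -0.45 (-0.81 to -0.09) in the deposited values and -0.12 (-0.53 to 0.29) without control 17. Without prednisolone 30 the first spots of TGFB2 differed by -0.19 (-0.71 to 0.32) and the second by -0.53 (-1.05 to -0.0059). The limma adjusted p was over 0.05 for both spots.

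TGFB3 was well above background in every animal. It lay at -0.16, -0.07 and 0.35 in controls and -0.47, -0.06 and 0.09 in treated animals other than 30. The difference was -0.29 (95% interval -0.66 to 0.08) with all arrays and -0.18 (-0.45 to 0.09) without prednisolone 30. Its second probe, also well above background in every animal, had the other sign, with 0.33 (-0.15 to 0.82) and 0.23 (-0.21 to 0.67). The 2 probes of TGFB3 thus gave no common direction.

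CCL5, the chemokine RANTES that draws T cells, monocytes and eosinophils, had the most negative difference of the set. In controls it lay at 0.70, 1.37 and 2.20 (lowest, median, highest), and in treated animals other than 30 at -0.14, 0.69 and 1.07. Control 17 was the highest animal and prednisolone 32 the lowest. Each of these 7 was below the average control, and the groups overlapped. Prednisolone 30 read 1.61, the mean of spots at 0.71 and 2.51, of which the second was not well above background.

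Controls averaged 1.35 ± 0.49 (SD, n = 7) for CCL5 and prednisolone animals 0.80 ± 0.50 (SD, n = 8). The difference was -0.56 ± 0.25 (SE), with a 95% interval of -1.08 to -0.03, a limma adjusted p of 0.883 and an exact permutation p = 0.0443 for this gene alone. Without prednisolone 30 it was -0.67 ± 0.22 (SE), 1.59-fold lower, with an interval of -1.14 to -0.20, an adjusted p of 0.98 and an exact permutation p = 0.0105. In the deposited values it was -0.73 (-1.22 to -0.24, adjusted p = 0.846), and each of the 8 treated animals, 30 included, was below the average control. CCL5 therefore lay lower in each set of values, and as with IL6 it did not pass the adjustment.

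Single animals and slides weighed on the CCL5 value. Of the 15 fits that left out 1 animal each, 6 kept an unadjusted p under 0.05 for CCL5 and 9 did not. With all other arrays kept, it was -0.41 (95% interval -0.91 to 0.08) without control 17 and -0.42 (-0.91 to 0.06) without prednisolone 32. Leaving out control 17 and prednisolone 30 together gave -0.53 (-0.95 to -0.11), and prednisolone 30 and 32 together gave -0.53 (-0.96 to -0.10). With slide as a block it was -0.26 (-1.24 to 0.72) and with scan day as a block -0.45 (-1.31 to 0.40). It was -0.57 (-2.03 to 0.90) within slide 1 and 0.21 (-3.02 to 3.43) within slide 4, the slide of prednisolone 30. The direction turned only there among the 41 settings tried.

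CCL5 is made by T cells and natural killer cells, and their markers were read beside it. Of 8 such markers 7 were tested and CD4 had no matched probe. None was at background: CD2, CD3D, CD3E, CD3G, CD8A, CD247 and NKG7 were each well above background in all 7 controls and in at least 7 of 8 treated animals. With prednisolone, 5 were lower and 2 higher, with a median difference of -0.03, and -0.14 without prednisolone 30. Without control 17, 5 were higher and 2 lower, with a median of 0.12, and 0.04 without both animals. Their summed level, as log2, ranged from -0.02 to 1.63 in controls and from 0.06 to 0.95 in treated animals other than 30, highest in control 17, as CCL5 was. In prednisolone 32 it was 0.06, the lowest of those treated animals, as CCL5 was too. The part of lymphocyte content in the CCL5 value was not tested.

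The other chemokines did not separate the groups. CCL2, which attracts monocytes, lay at -5.63, -4.47 and -3.05 in controls and at -5.68, -4.03 and -3.64 in treated animals other than 30, a difference of 0.20 (95% interval -0.59 to 0.99) with all arrays and 0.22 (-0.58 to 1.03) without prednisolone 30. CXCL10, an interferon-induced chemokine of T cells, lay at -3.46, -2.84 and -1.04 against -3.51, -2.38 and -1.93, a difference of 0.10 (95% interval -0.62 to 0.82) and 0.05 (-0.68 to 0.78). Both were highest in control 17 and lowest in prednisolone 32, as CCL5 was, although their group differences had the other sign. CXCL8, interleukin-8, the main chemokine of neutrophils, was well above background on 1 array, that of prednisolone 28, where its spots read -6.25 and -8.85. No fold was given for it.

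CXCL12, a chemokine that stromal and Sertoli cells use to hold stem cells in place, and its receptor CXCR4 were both well measured. CXCL12 lay at -1.06, -0.66 and 0.28 in controls and at -0.52, -0.29 and 0.07 in treated animals other than 30, all 7 of which lay above the control mean. The difference was 0.12 (95% interval -0.40 to 0.64) with all arrays, where prednisolone 30 was lowest at -1.57, and 0.28 (-0.11 to 0.67) without it. The CXCL12 interval lay above 0 without control 17 and prednisolone 30, at 0.42 (0.10 to 0.73), with array weights, at 0.33 (0.03 to 0.64), and on the first spots without prednisolone 30, at 0.39 (0.02 to 0.76). It included 0 on the second spots, at 0.17 (-0.29 to 0.63), and the limma adjusted p was over 0.05 in each. CXCR4 lay at -1.68, -1.39 and -0.99 against -2.20, -1.50 and -1.05, a difference of -0.36 (-0.98 to 0.25) and -0.13 (-0.50 to 0.25). A dimmer second CXCR4 probe, well above background on 9 of 15 arrays, differed by 0.41 and -0.11.

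The adhesion molecules and PTGS2, which NF-kB induces in endothelium and inflamed tissue, also overlapped between groups. ICAM1 lay at -3.34, -2.68 and -1.86 in controls and at -3.42, -2.70 and -2.11 in treated animals other than 30, a difference of 0.16 (95% interval -0.49 to 0.80) with all arrays and -0.06 (-0.52 to 0.40) without prednisolone 30. A second probe filed under ICAM1 carries a description of PTBP1 and was not used for it. VCAM1 differed by 0.02 (-0.70 to 0.74) with all arrays and -0.24 (-0.73 to 0.26) without prednisolone 30, with the 7 other treated animals between -2.48 and -2.02 and controls spread from -2.83 to -0.90. PTGS2, the inducible cyclooxygenase of prostaglandin synthesis, was well above background in 4 controls and 4 treated animals, and differed by 0.29 with all arrays and -0.23 (95% interval -0.74 to 0.29) without prednisolone 30. With slide as a block PTGS2 differed by 0.02 (-1.93 to 1.97), and by -0.82 (-1.48 to -0.17) when prednisolone 30 was also left out.

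The genes of the set differed widely in their spread between animals. Over the 14 arrays the median SD was 0.46 for the 30 tested genes and 0.32 for all tested genes. RELA had the lowest, 0.15, and IL6 the highest, 0.98, followed by CCL2 with 0.78, IL1R1 with 0.76 and MIF with 0.75. IL6 lies near background, while MIF was well above background in every animal.

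A few animals held many of the extremes. Control 17 had the highest level of 11 of the 30 genes (36.7%, against 19.7% of all genes): IL1RN, IL6R, IL18, TNF, TGFB2, CCL2, CCL5, CXCL10, CXCL12, ICAM1 and VCAM1. It also had the lowest level of 4 (13.3%, against 26%), IL1A, IL12B, TNFAIP3 and LTA. Over all genes this animal held the largest share of both the highest and the lowest levels. Prednisolone 32 had the lowest level of 5 (16.7%, against 4.6%): IL1R1, TGFB1, CCL2, CCL5 and CXCL10. Control 22 had the lowest of 5 (16.7%, against 7.86%), IL6, IL10, TNFRSF1A, MIF and CXCL12, and prednisolone 27 the highest of 5 (16.7%, against 11.3%), IL10, TNFRSF1A, TGFB1, CSF1 and MIF. Control 17 was also the animal with the highest summed level of the 5 epithelial markers, 3.79 against 2.17 in prednisolone 32, the lowest, and of the 5 smooth muscle markers, at 5.54. The part of tissue makeup in these extremes was not tested.

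**Figure D4:**
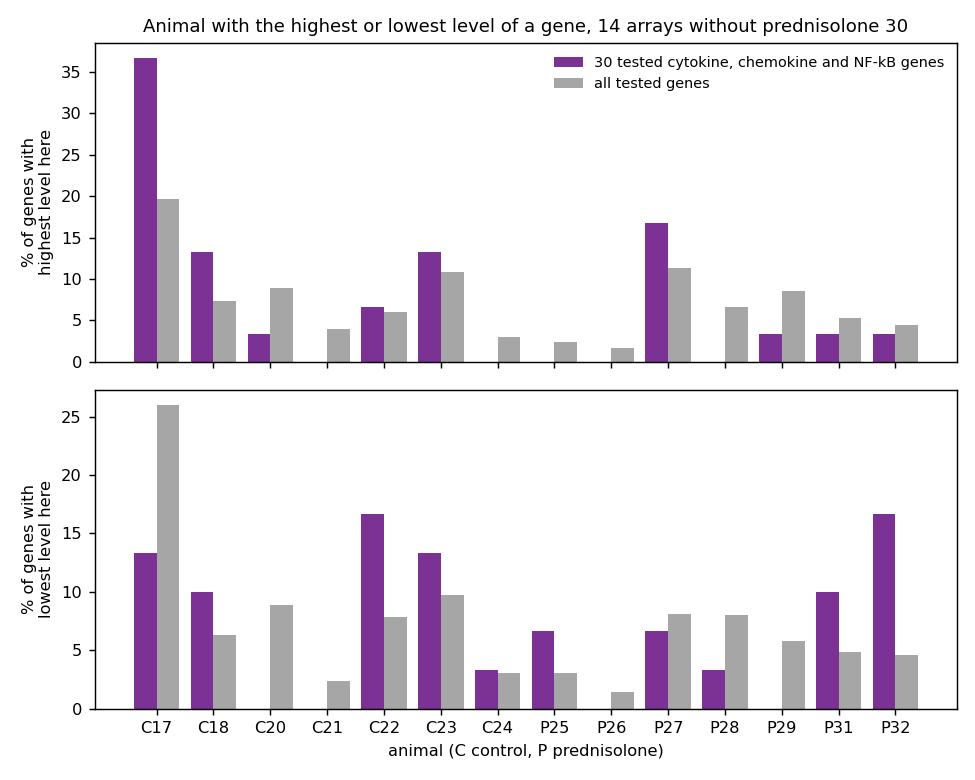
Share of genes (y axis, percent) whose highest level (top) or lowest level (bottom) over 14 animals was in the animal on the x axis, for the 30 tested cytokine, chemokine and NF-kB genes (purple) and for all tested genes (grey). Control 17 holds the highest level of 36.7% of the set, and control 22 and prednisolone 32 hold the lowest level of 16.7% each. Over all genes control 17 holds the largest share of both, with the highest level of 19.7% and the lowest of 26%.

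The wider pathways around the set gave counts of 0 past the adjusted threshold in each of 6 lists, in the fits with and without prednisolone 30 and in the deposited values. Of 31 NF-kB signalling genes, 15 were higher and 16 lower, with a median difference of -0.03, against 0.02 and 52.1% higher over all genes. Without prednisolone 30, 12 were higher and 19 lower, with a median of -0.06. NFKBIB, an inhibitor that holds NF-kB in the cytoplasm, was the 1 of 31 with an unadjusted p under 0.05, as were 2.45% of all genes, with a difference of 0.45 ± 0.20 (SE), and 0.30 ± 0.13 (SE) without prednisolone 30. NFKBIA, the inhibitor that glucocorticoids and NF-kB both induce, differed by -0.42 ± 0.25 (SE), and -0.34 ± 0.24 (SE) without that animal.

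Among 28 tested cytokine receptors and signalling genes, 12 were higher and 16 lower, with a median of -0.08, and 8 and 20 without prednisolone 30, with a median of -0.12. Without control 17, 14 were higher and 14 lower. CSF3R, the granulocyte colony-stimulating factor receptor of neutrophils, lay at -3.99 ± 0.41 (SD, n = 7) in controls and differed by 1.09 ± 0.30 (SE, limma adjusted p = 0.883), and by 0.91 ± 0.24 (SE) without prednisolone 30. It was the 1 of 28 with an unadjusted p under 0.05 in both fits, beside 2.45% and 4.14% of all genes. Among 10 tested further ligands 8 were higher, with a median of 0.33, but 6 with a median of 0.01 without prednisolone 30. FASLG, the Fas ligand that kills activated lymphocytes, had the smallest p of these, with a difference of 0.74 ± 0.24 (SE), and 0.77 ± 0.24 (SE) without prednisolone 30. It was the 1 of 10 ligands with an unadjusted p under 0.05 with all arrays. Without prednisolone 30 there were 2, FASLG and TNFSF11, the latter lower by -0.62 ± 0.29 (SE).

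Of 20 tested further chemokines and receptors, 15 were higher with all arrays and 7 without prednisolone 30, with medians of 0.20 and -0.05. Of 13 tested genes of transforming growth factor beta signalling, 8 were higher and 5 lower with a median of 0.07, and 5 were higher without prednisolone 30. ENG, a coreceptor on endothelium, had the smallest p, with a difference of 0.44 ± 0.20 (SE), and 0.29 ± 0.14 (SE) without prednisolone 30. It was the 1 of 13 with an unadjusted p under 0.05 in both fits, beside 2.45% and 4.14% of all genes. The direction of both lists thus turned when the dim array was left out.

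Of 15 tested glucocorticoid-induced genes that restrain inflammation, TNFAIP3 among them, 3 were higher and 12 lower, with a median of -0.15, and without prednisolone 30 the count was 4 and 11 with a median of -0.14. At an unadjusted p under 0.05 there were 0 with all arrays and 2 in the deposited values, beside 2.45% and 5.39% of all genes. These were MT2A, a metallothionein, which differed by -0.73 ± 0.43 (SE) and by -0.86 in the deposited values, and CEBPD, a transcription factor, which differed by -0.51 ± 0.28 (SE) and by -0.62. The median was -0.05 without control 17 and prednisolone 30, and control 17 had the highest summed level of this list.

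Markers of the immune cells that make these cytokines gave no common direction. At an unadjusted limma p under 0.05 there were CSF3R, a granulocyte marker, and CD79A of B cells, beside 2.45% of all genes. They differed by 1.09 ± 0.30 (SE) and 0.47 ± 0.21 (SE). Without prednisolone 30 CSF3R stayed under it, at 0.91, beside 4.14%. In the deposited values these were CSF3R, at 0.98, and MRC1 of macrophages, at -0.36, beside 5.39%. Of 7 tested macrophage markers 5 were lower, with a median of -0.18, and 6 without prednisolone 30, with a median of -0.11. Without control 17 and prednisolone 30, 5 were higher and 2 lower, with a median of 0.09. Their summed levels were 4.17 to 4.53 in controls and 4.01 to 4.52 in treated animals other than 30. CD14, CD68 and CSF1R were well above background in every control, and ITGAM on no array. All 3 tested granulocyte markers were higher, CSF3R among them, with a median of 0.11, but without control 17 only 1 was higher and 2 lower, with a median of -0.03. Their summed levels were 0.32 to 1.43 and 0.96 to 1.67. All 3 tested B cell markers were higher, with a median of 0.21, and 2 of 3 without prednisolone 30. All 5 epithelial markers were lower without prednisolone 30, with a median of -0.42. None of these markers passed the adjusted threshold, and their part in the cytokine values was not tested.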

How the data were processed

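Per the file headers, the deposited scanner files give spot intensity from Feature Extraction 9.5.1.1. The authors' deposited table holds linear intensity values whose scaling method no source used here states, and the submitters' processing notes name R 2.11.1. Outlier spots were masked, log2 processed signal was set relative to each array's 75th percentile, and spots of a probe were averaged. Probes well above background on at least 7 arrays were tested (18492), and the probe of highest mean stood for its gene. Names came from a RefSeq table of assembly ARS-UCD2.0. The test was limma (3.58.1, in R 4.3.3), two-sided, with Benjamini-Hochberg adjustment over all tested probes and a threshold of 0.05. On simulated data of 13293 genes for this comparison, 5.6% of genes changed by 0.5 (log2) were called, 48.6% at 1 and 88.9% at 2. The changed genes were drawn from all tested genes, whose median SD over 14 arrays was 0.32, against 0.46 in the set. The noise took random signs value by value, so effects shared by an array or slide were not kept. The adjustment there ran over genes instead of all tested probes. These rates therefore need not hold for the genes described.

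Named genes had the smallest unadjusted p, the largest SD or a textbook role. The members and lists were chosen with earlier results of these data known. Single spots, exact permutation tests, the deposited table without an animal, batches without prednisolone 30, and leaving out prednisolone 30 and 32 were chosen after seeing the data. P-values measure the spread between animals, and the number of arrays limits the precision.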

Additional observations from a re-analysis of the deposited data

Results flagged for a closer look

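Among 60 groups of values, 30 genes in each of the groups, 16 held 1 animal whose gap to the others was larger than chance gives in 1 of 20 groups, where about 3 would be expected. Of these, 12 were prednisolone 30, and 8 of those values were not well above background. Prednisolone 30 lay above the other treated animals for IL1A (-2.72), IL1B (-1.70), IL1RN (-2.56), IL12B (-1.70), CSF1 (-2.27), VCAM1 (-0.18), PTGS2 (-2.91) and NFKB1 (-3.68), none of them well above background, and for IL10 (-0.71) and LTA (0.0434). It lay below them for CXCL12 (-1.57) and RELA (1.79).

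Control 17 lay above the other controls for IL1RN (-4.75, the others -7.21 to -6.33) and IL6R (-0.92, the others -2.26 to -1.73). Prednisolone 27 lay above the other treated animals for TNFRSF1A (1.39, the others 0.62 to 0.98). Prednisolone 32 lay below them for CCL2 (-5.68, the others -4.39 to -3.64).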

How the results depend on the processing

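In all settings tried, 0 of the genes described and 0 of all genes had a limma adjusted p under 0.05. The number of all genes with an unadjusted p under 0.05 was 326 with all arrays and 551 without prednisolone 30, 716 in the deposited table, 844 with array weights, 235 and 232 with slide and scan day as a block, and 34 within slide 4. The median difference over the genes described was 0.12, and -0.0864 within slide 1, 0.75 within slide 4 and -0.10 within scan day 1 without prednisolone 30. Leaving out 1 animal at a time gave medians from -0.03 to 0.22. Without prednisolone 30, 10 of 30 genes changed sign. IL6 was positive in all 40 settings that gave it a value, from 0.21 with normexp to 1.73 without prednisolone 25. CCL5 was negative in 40 of 41 and NFKB1 in 37 of 41. The causes were not tested. No paired analysis was possible because the groups share no animal numbers. Dim probes near background limit the interleukin-1 genes, IL6 and PTGS2.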
